A study of Mus musculus with 7 samples.

Results

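The genes described here encode ligands, receptors and modulators of transforming growth factor beta (TGF-beta) and bone morphogenetic protein (BMP) signalling, measured in Dicer1-deficient and control retinal pigment epithelium (RPE) of the mouse. They are Tgfb2, Tgfb3, Inhba, Inhbb, Bmp6, Bmpr2, Itgb8, Ltbp2, Nog and Wfikkn2, taken as every probe set annotated with exactly 1 gene symbol that is 1 of these names. All 10 genes were found, with 110 probe sets, among 5017 genes and 65535 probe sets in all. Every member and every measured gene of the lists used below lay on chromosome 1, 10, 11, 12 or 13. Other chromosomes may be missing from the values, so shares of all genes are shares of the 5017 genes in them. The 10 genes were chosen by name after the log2 differences between these same groups were known. Their differences are therefore given as a description, and no count of them is support for a change of the pathway.

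The series held 7 Affymetrix arrays of RPE dissected from pups at postnatal day 5, 4 called control and 3 Dicer1-deficient. The Dicer1 protein trims hairpin precursors into mature microRNAs. Deficient pups carried loxP-flanked Dicer1 on both alleles together with Dct-Cre, in which the promoter of the pigment cell gene dopachrome tautomerase drives Cre. The pups came from matings of Dicer1 flox/+ Dct-Cre mice with Dicer1 flox/flox mice, and the labels do not state the genotype of the controls or whether they carried Cre. That promoter is also active in melanocytes, and the labels do not say whether an array is 1 animal or a pool, so the spread between arrays may be partly technical.

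Ligands of this family bind pairs of type I and type II serine/threonine kinase receptors, which phosphorylate SMAD proteins. TGF-beta is secreted in a latent complex that integrins can open, while activins and BMPs are held in check mainly by secreted binding proteins. In the eye, TGF-beta 2 is the main isoform of the posterior segment, and BMPs and activins take part in specifying the RPE during development.

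Signals are on the log2 scale, so that a difference of 1 is a doubling. The median of all signals was 6.22 and the lower quartile 4.63. No detection calls were used, so a signal below that median was not shown to be above background. Each probe set has its own brightness, so where genes are called brighter or dimmer, this is signal and not RNA amount. Control 4 stood apart from the other arrays, with Pearson correlations across all probe sets of 0.942 to 0.951 with them and a median of 6.05, against 6.22 to 6.26 in the other 6 arrays. Dicer1 itself had a log2 fold change of -0.05 (SE 0.15, n = 4 and 3) at its brightest probe set, and 14 of its 28 probe sets were lower, with a median of -0.0025. The floxed part is not stated, and which probe sets lie in it is not known here. Of the listed RPE and pigment cell markers, 10 of 20 were measured. The brightest, Pmel, Serpinf1, Rdh10, Rdh5 and Kcnj13, lay between 11.18 and 12.66 in controls. The rest, Mlph, Tspan10, Slc24a4, Rdh11 and Mreg, lay between 7.28 and 11.04, while Rpe65, Rlbp1, Best1 and others were not analysed here.

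Each gene is first given at its brightest probe set, the one with the highest mean over the 7 arrays. A gene is called where limma's Benjamini-Hochberg adjusted p over all 5017 genes is below 0.05. By that rule 2 of the 10 genes were called, Itgb8 and Wfikkn2, both lower in Dicer1-deficient RPE, against 2.33% of all genes and 0.917% called lower. In 5 of the 10 the control and Dicer1-deficient values were fully separate, against 16.3% of all genes: 4 were lower (7.02% of all genes) and 1 higher (9.27%). Negative log2 fold changes were found in 9 of the 10 and in 51.9% of all genes. None was called higher, against 1.42% of all genes. The median log2 fold change of the 10 was -0.40, beside -0.01 over all genes. Nothing is read from these shares, because the contrast itself was known when the genes were picked.

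**Figure D1:**
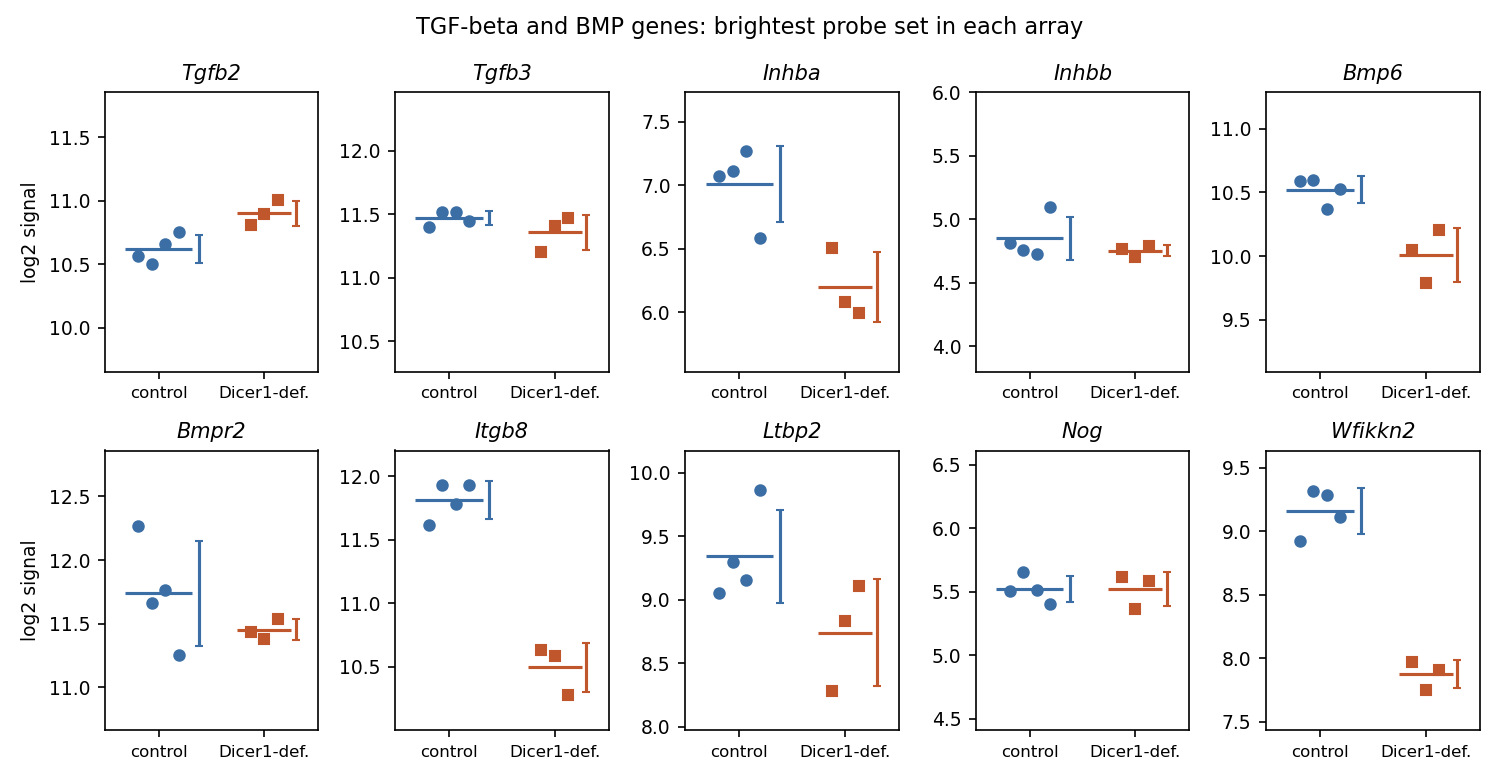
Log2 signal of the brightest probe set of each gene (vertical axis, the same span in every panel) in the 4 control arrays (circles) and 3 Dicer1-deficient arrays (squares). Horizontal lines are group means and bars are SDs over arrays, and the groups of Itgb8 and Wfikkn2 lie farthest apart, at 11.81 against 10.50 and 9.16 against 7.88.

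The 250 bases before the start of Itgb8 and of Bmp6 are shown because these 2 genes had 10 or more probe sets, all of them lower, and a window that lies outside the RefSeq gene. Both are from RefSeq, mouse build GRCm38.p6. Itgb8 is on the minus strand at chr12:119238277-119238526, and Bmp6 on the plus strand at chr13:38345466-38345715. Capitals mark matches, on either strand, to CAGAC (the core of SMAD-binding elements), CACGTG (an E-box), TAATCC (an OTX-type site) or GGGCGG (a GC box).
Itgb8: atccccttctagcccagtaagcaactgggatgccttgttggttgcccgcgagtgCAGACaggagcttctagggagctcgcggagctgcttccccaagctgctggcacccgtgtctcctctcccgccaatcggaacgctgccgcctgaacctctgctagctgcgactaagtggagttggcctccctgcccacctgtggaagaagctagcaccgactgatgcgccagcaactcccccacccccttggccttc
Bmp6: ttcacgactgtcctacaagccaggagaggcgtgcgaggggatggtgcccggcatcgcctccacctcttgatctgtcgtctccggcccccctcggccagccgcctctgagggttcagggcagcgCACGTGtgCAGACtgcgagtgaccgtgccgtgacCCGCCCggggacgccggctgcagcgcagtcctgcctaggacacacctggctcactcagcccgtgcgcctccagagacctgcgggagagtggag
The Itgb8 window held 1 CAGAC and no other match, and the Bmp6 window held 1 CAGAC, 1 CACGTG and 1 GC box. Over 32851 such windows CAGAC was found in 42.2%, CACGTG in 6.02%, TAATCC in 6.25% and GGGCGG in 32.7%. Of the 10 genes 8 were in the promoter table.

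Of the 5 ligand genes among the 10, Tgfb2, the TGF-beta 2 gene, alone had a positive difference at its brightest probe set. Tgfb2, on chromosome 1, read 10.56, 10.51, 10.66 and 10.76 in controls 1 to 4 and 10.81, 10.89 and 11.00 in the Dicer1-deficient arrays. The lowest Dicer1-deficient array lay just above the highest control. The log2 fold change was 0.28 (SE 0.10, 95% interval 0.04 to 0.52), or 1.21-fold, and the gene was not called at this probe set.

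The brightest probe set showed the smallest difference but one along Tgfb2. All 13 of its probe sets had positive log2 fold changes, from 0.09 to 0.85 with a median of 0.49, and in 11 the groups did not overlap, against 13.3% of all probe sets and 7.25% that were higher without overlap. The exceptions were probe set 10, the dimmest at 5.58 in controls, with a difference of 0.09, and probe set 9, with 0.37. Probe set 6 went from 9.82 ± 0.27 (SD, n = 4) to 10.59 ± 0.16 (SD, n = 3), a difference of 0.77. None of the 13 was called over all probe sets, of which 0.856% were called and 0.533% called higher. On the mean of its 13 probe sets Tgfb2 read 8.42, 8.30, 8.47 and 8.10 in controls and 8.71, 8.84 and 8.95 in Dicer1-deficient arrays. It rose by that measure, by 0.51 on the log2 scale (SE 0.11), when limma was fitted to the means of all genes. The call was lost without control 2 and without each Dicer1-deficient array in turn, with values from 0.44 to 0.57 over the 7 fits that leave out 1 array.

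Tgfb3, which encodes the third TGF-beta isoform and lies on chromosome 12, differed less. It read 11.40, 11.52, 11.51 and 11.44 in controls and 11.20, 11.40 and 11.47 in Dicer1-deficient RPE, so the groups overlapped. The log2 fold change was -0.11 (SE 0.10, 95% interval -0.35 to 0.13). Of its 10 probe sets 9 had negative values, against 49.4% of all probe sets, the lowest at -0.43, and 1 was lower without overlap, against 6.10% of all probe sets. Dicer1-deficient array 1 was the lowest of its group in all 10. Averaged over probe sets the difference was -0.17 (SE 0.12), not called.

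Inhba and Inhbb encode the beta A and beta B subunits, whose dimers form the activins and which pair with the alpha subunit in the inhibins. Inhba, on chromosome 13, read 7.07, 7.11, 7.27 and 6.58 in controls and 6.51, 6.08 and 5.99 in Dicer1-deficient arrays. Control 4 was far below the other controls and just above Dicer1-deficient array 1. The difference was -0.81 (SE 0.19, 95% interval -1.26 to -0.36), 1.76-fold lower, and it was not called on the deposited values of all 7 arrays. It was called without control 4, at -0.95 (SE 0.15), and with all 7 arrays after a repeated quantile normalization (-0.84) or with array weights (-0.96).

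The remaining probe sets of Inhba were dim. Probe set 3 went from 6.04 ± 0.08 (SD, n = 4) to 5.39 ± 0.26 (SD, n = 3) with groups that did not overlap, probe set 2 had a difference of -0.52, and probe set 1, at 3.87 in controls, had 0.02. In the brightest the Dicer1-deficient mean, 6.19, was itself just below the median of all signals. Averaged over its 4 probe sets Inhba fell by 0.49 on the log2 scale (SE 0.12), a call that was lost without each array other than control 4.

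Inhbb, on chromosome 1, had only dim probe sets. The brighter read 4.81, 4.76, 4.73 and 5.10 in controls and 4.77, 4.70 and 4.79 in Dicer1-deficient arrays, a log2 fold change of -0.10 (SE 0.12). The other read 4.99, 5.33, 4.99 and 4.95 against 4.43, 4.46 and 4.43, a difference of -0.62 (SE 0.13). The groups overlapped at the first and not at the second. The mean of the pair was called lower, at -0.36 (SE 0.08), and this call too was lost without each array other than control 4. Neither probe set was shown to be above background.

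Bmp6, on chromosome 13, encodes a BMP ligand best known for its part in iron balance. It read 10.59, 10.60, 10.37 and 10.53 in controls and 10.04, 9.78 and 10.20 in Dicer1-deficient arrays. Every Dicer1-deficient array lay below every control. The difference was -0.51 (SE 0.13, 95% interval -0.80 to -0.22), 1.42-fold lower, and it was not called over all genes.

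Its probe sets pointed 1 way. All 10 were lower, from -0.80 to -0.31 with a median of -0.52, and in 6 the groups did not overlap, against 6.10% of all probe sets that were lower without overlap. In the probe set with the largest difference, the last in number order, controls read 7.65, 7.90, 7.48 and 7.44 and Dicer1-deficient arrays 6.88, 6.75 and 6.83. Dicer1-deficient array 2 was the lowest of its group in 9 of the 10. Averaged over probe sets Bmp6 fell by 0.55 on the log2 scale (SE 0.10), from 8.62 ± 0.12 (SD, n = 4) to 8.06 ± 0.17 (SD, n = 3). That call was lost without control 2, Dicer1-deficient array 1 or Dicer1-deficient array 2, and the value stayed between -0.62 and -0.46 over the 7 fits that leave out 1 array.

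**Figure D2:**
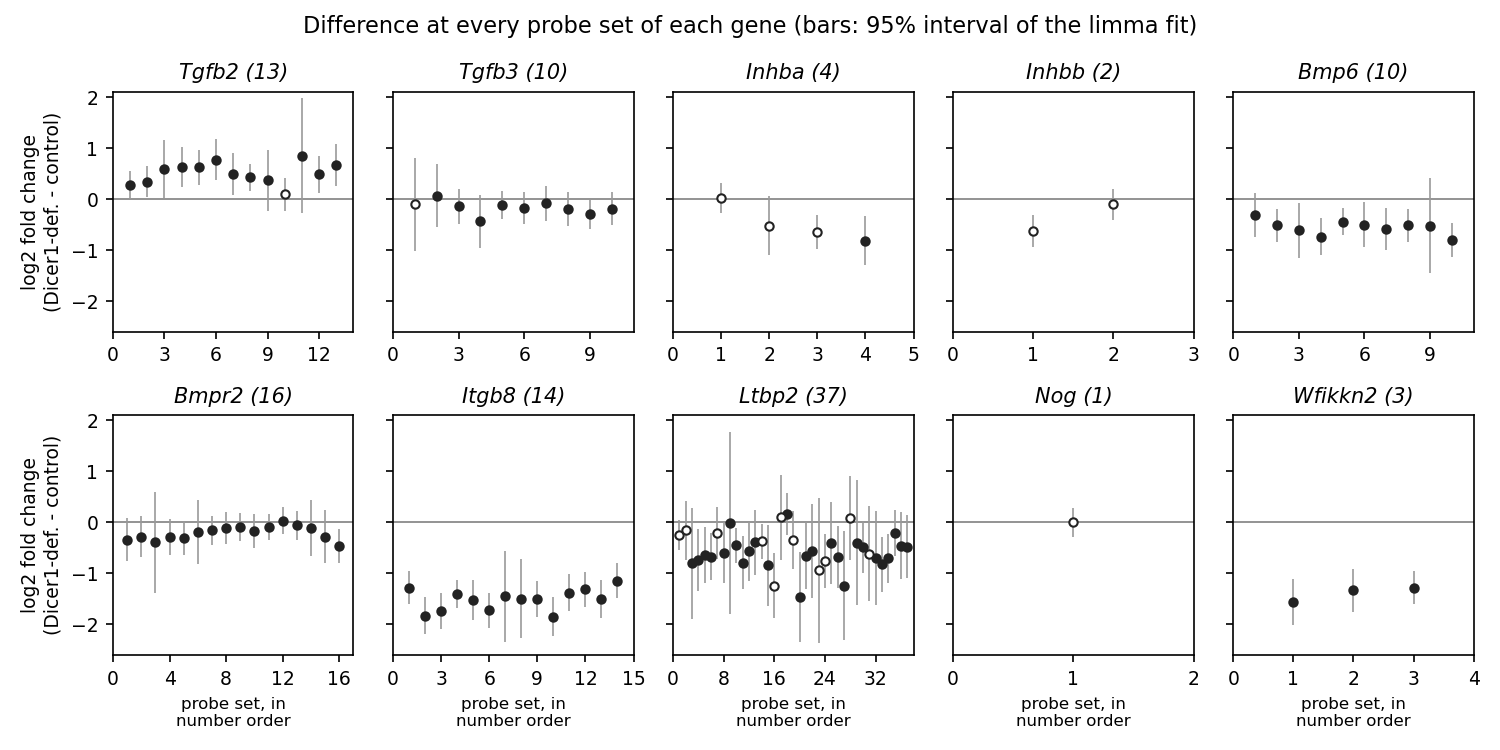
Log2 fold change, Dicer1-deficient minus control, at each probe set of the 10 genes in order of probe set number (horizontal axis, with the number of probe sets after each name), with 95% intervals from limma as bars. Filled points have control means above the median of all signals (6.22) and open points below it. All 14 points of Itgb8 lie between -1.85 and -1.14, and all 13 of Tgfb2 lie above 0.

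The only receptor of the 10 was Bmpr2, a type II receptor for BMPs, on chromosome 1. Its brightest probe set read 12.27, 11.66, 11.76 and 11.26 in controls and 11.43, 11.38 and 11.54 in Dicer1-deficient arrays. The controls were spread over a wider range than the Dicer1-deficient arrays and the groups overlapped, with a log2 fold change of -0.29 (SE 0.22, 95% interval -0.79 to 0.21). Of 16 probe sets 15 were lower, by small amounts, with a median of -0.18 and the lowest at -0.47. The groups did not overlap in 3 of them, against 6.10% of all probe sets in that direction. Averaged over probe sets the difference was -0.21 (SE 0.10) with all arrays, not called, and -0.27 (SE 0.07) without control 4, called lower.

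Of the members listed under latency and activation, Itgb8 and Ltbp2, the integrin beta 8 gene Itgb8 had the larger and more uniform difference. Itgb8, on chromosome 12, encodes the partner of integrin alpha v in the receptor that activates latent TGF-beta 1 and 3. It read 11.61, 11.93, 11.78 and 11.93 in controls and 10.63, 10.58 and 10.28 in Dicer1-deficient arrays. No array of either group came near the other group. Itgb8 fell by 1.31 on the log2 scale (SE 0.13, 95% interval of the fold change -1.62 to -1.01), which is 2.49-fold lower (2.01 to 3.08).

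The difference ran through the whole set of Itgb8 probe sets. All 14 were lower and in all 14 the groups did not overlap, against 6.10% of all probe sets that were lower without overlap. Their differences ran from -1.85 to -1.14 with a median of -1.50, and 12 were called lower over all 65535 probe sets, against 0.323% of them. Without Dicer1-deficient array 1, 2 or 3, the calls numbered 8, 6 and 5. The 2 that were not called, probe sets 7 and 8, had the differences -1.45 and -1.50 and a wide spread from control 4 alone, which read 9.45 and 9.53 there while controls 1 to 3 read 10.66 to 11.00. On the mean of the 14 probe sets controls read 10.43, 10.71, 10.58 and 10.38 and Dicer1-deficient arrays 9.10, 9.08 and 8.87, a log2 fold change of -1.51 (SE 0.11). With control 4 left out, the brightest gave -1.28 and the average -1.56.

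Latent TGF-beta binding protein 2, an extracellular matrix protein of elastic fibres that, unlike its relatives, does not bind latent TGF-beta itself, is encoded by Ltbp2 on chromosome 12. It read 9.05, 9.30, 9.15 and 9.87 in controls and 8.28, 8.84 and 9.11 in Dicer1-deficient arrays, and the groups overlapped. The log2 fold change was -0.60 (SE 0.25, 95% interval -1.18 to -0.02), not called.

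In Ltbp2, as in Tgfb3, Dicer1-deficient array 1 stood low in its group. It was the lowest of its group in 31 of the 37 probe sets, and control 4 was the highest control in 21 and the lowest in 13. Of the 37 probe sets 34 were lower, with a median of -0.57 and a range from -1.47 to 0.17, and in 15 the groups did not overlap and the deficient arrays were lower (6.10% of all probe sets). The mean of the probe sets read 6.88, 6.87, 6.95 and 6.79 in controls and 5.85, 6.42 and 6.69 in Dicer1-deficient arrays, a difference of -0.55 (SE 0.17), not called. It was -0.31 without Dicer1-deficient array 1 and -0.74 without Dicer1-deficient array 3, and only the latter fit called the gene.

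Of the secreted inhibitors, Wfikkn2 nearly matched Itgb8 in size. Wfikkn2, on chromosome 11, encodes a multidomain protein that binds myostatin and GDF11. It read 8.92, 9.32, 9.29 and 9.12 in controls and 7.97, 7.75 and 7.91 in Dicer1-deficient arrays. The groups lay nearly a full log2 unit apart at their nearest arrays. Wfikkn2 fell by 1.28 on the log2 scale (SE 0.13, 95% interval of the fold change -1.58 to -0.99), 2.44-fold lower (1.99 to 2.99).

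All 3 probe sets of Wfikkn2 were called lower over all probe sets, against 0.323% of them. Only 1 was called without control 1, 2 or 3, and the limma calls of all 3 were lost without any 1 of the Dicer1-deficient arrays. The other probe sets read 7.42, 7.78, 7.63 and 7.06 against 5.97, 5.71 and 6.08, a difference of -1.55, and 7.75, 8.13, 8.08 and 7.50 against 6.62, 6.39 and 6.58, a difference of -1.34. In each, Dicer1-deficient array 2 was the lowest array. Averaged over the 3, the log2 fold change was -1.39 (SE 0.14), and without control 4 it was -1.48.

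Noggin, a secreted protein that binds BMPs and blocks their receptors, had 1 probe set. Nog, on chromosome 11, read 5.51, 5.66, 5.52 and 5.40 in controls and 5.61, 5.36 and 5.58 in Dicer1-deficient arrays, all below the median of all signals. The groups overlapped almost fully, with a log2 fold change of -0.00133 (SE 0.11, 95% interval -0.25 to 0.25). Since the probe set was not shown to be above background, this interval bounds the signal and not the RNA.

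Over the 7 arrays, after each gene's own mean was taken off, the genes with signals most like those of Itgb8 were Kcnj13, Wfikkn2 and Ccl11, with root mean square differences of 0.131, 0.154 and 0.209 log2 units. Those most like Wfikkn2 were Kcnj13 (0.142), Itgb8 (0.154) and Mael (0.187). The median over all genes, with symbols ending in Rik or starting with Gm and a digit left out, was 0.689 from Itgb8 and 0.681 from Wfikkn2. The difference between the groups was left in these signals. The nearest genes are therefore mainly those with a similar log2 fold change, and genes without a change lie far from both. Whether the genes vary together among arrays of the same group was not tested. Kcnj13, a potassium channel gene of the RPE, fell by 1.19 on the log2 scale (SE 0.14; limma adjusted p = 0.0051).

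Calls of the smaller differences varied with how a gene was summarised and with the arrays used. With the mean of all probe sets in place of the brightest, 6 of the 10 genes were called, Tgfb2 higher and Inhba, Inhbb, Bmp6, Itgb8 and Wfikkn2 lower, against 5.86% of all genes (3.03% higher and 2.83% lower). The groups did not overlap for 7 on that measure, against 18.9% of all genes: 6 were lower (8.65%) and 1 higher (10.2%). Without control 4 as well, 7 were called, Bmpr2 being the added gene, against 17.0% of all genes (6.74% higher and 10.3% lower). At the brightest probe set without control 4, 3 were called, Inhba, Itgb8 and Wfikkn2, all lower, against 5.18% (3.17% higher and 2.01% lower). Nothing is read from these shares either. In each of these 3 fits 9 of the 10 had negative values, against 54.4%, 48.7% and 42.9% of all genes.

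**Figure D3:**
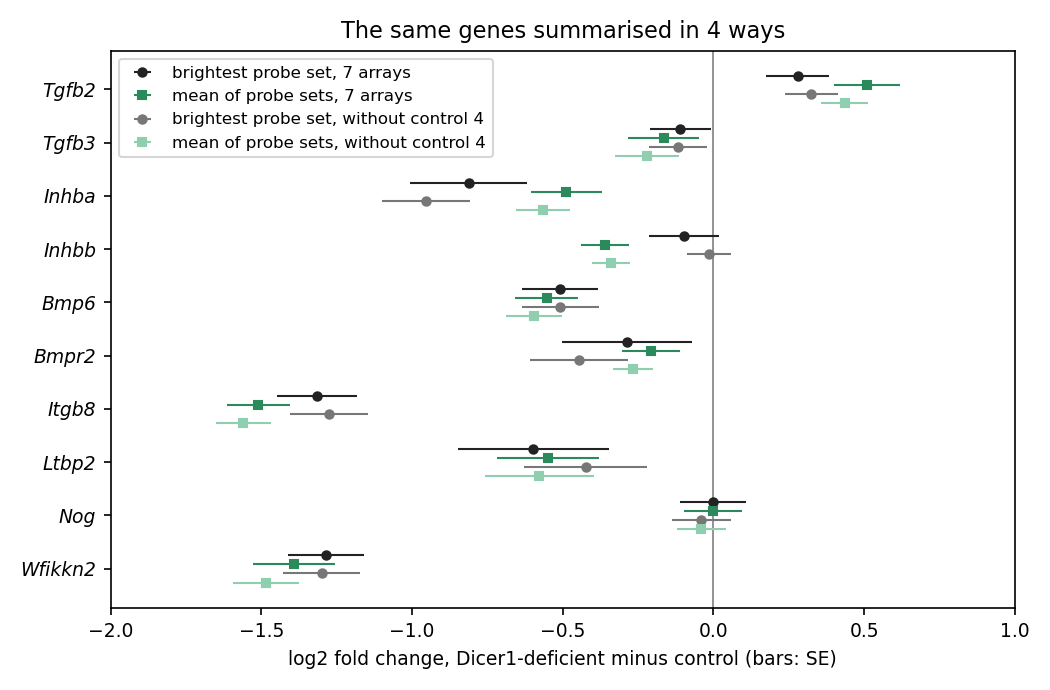
Log2 fold change of each gene, Dicer1-deficient minus control (horizontal axis, bars are SE), at the brightest probe set (circles) and on the mean of all probe sets (squares), with all 7 arrays (dark) and without control 4 (light). Itgb8 lies between -1.56 and -1.28 and Wfikkn2 between -1.48 and -1.28 in the 4 summaries, and Inhbb moves from -0.10 at its brightest probe set to -0.36 on the mean.

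Other genes of the pathway were taken from a list by role, which leaves out the 10 genes above. Of 132 listed, 30 were measured. At the brightest probe set 2 of the 30 were called (6.67%, against 2.33% of all genes), 1 higher and 1 lower, both secreted inhibitors. The list was drawn up with earlier results of these data known. Nothing is therefore read from that share or from the shared role of the 2 genes. The median log2 fold change of the 30 was -0.01, the same as over all genes. The measured ligands other than those above numbered 11, the receptors and co-receptors 1, the latency and activation genes 1, the inhibitors 5, the SMADs and intracellular regulators 5 and the target genes 7.

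Fstl3, which encodes a follistatin-like protein that binds activins and myostatin, rose. It read 6.98, 6.94, 7.17 and 6.65 in controls and 8.09, 8.27 and 7.90 in Dicer1-deficient arrays, so the groups were well apart. The log2 fold change was 1.15 (SE 0.15; limma, Benjamini-Hochberg adjusted p = 0.00887), 2.22-fold higher, and all 5 of its probe sets were higher. Averaged over them it was 1.13 (limma adjusted p = 4.6e-04). Without Dicer1-deficient array 1 the value was again 1.15 but the call was lost (limma adjusted p = 0.0561, the highest of 15 alternatives, with 1.8e-04 the lowest).

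Sostdc1, which encodes a secreted inhibitor of BMP and Wnt signalling, fell. It read 11.62, 11.71, 11.65 and 11.87 in controls and 11.10, 11.12 and 11.18 in Dicer1-deficient arrays. Each group was narrow and they did not overlap. The log2 fold change was -0.58 (SE 0.10; limma adjusted p = 0.0285), 1.50-fold lower, and all 4 probe sets were lower. Averaged over them it was -0.72 (limma adjusted p = 0.00103). The call at the brightest probe set was lost with median centring of the arrays (-0.61) and without any 1 array other than control 4 (-0.61 to -0.56), with limma adjusted p from 1.8e-04 to 0.136 over the 15 alternatives.

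No ligand, receptor, SMAD or target gene outside the 10 was called at the brightest probe set. Among these ligands only Inha (6.55) and Gdf11 (8.82) had control means above the median of all signals, 6.22. The co-receptor gene Cfc1 (5.01) and the target genes Id4 (5.89) and Msx2 (4.30) lay below it, while the other target genes and the SMAD group lay above. The lack of a call does not show that the RNA of any of these genes was unchanged. Genes below that median were, besides, not shown to be above background. The ligand with the smallest p was Inha, the inhibin alpha subunit gene, at 6.29, 6.39, 6.88 and 6.63 in controls and 6.94, 6.99 and 7.19 in Dicer1-deficient arrays. Its log2 fold change was 0.49 (SE 0.16; limma adjusted p = 0.199). Cfc1, a co-receptor gene for Nodal, had -0.02 (SE 0.16) and Itgb3, the integrin beta 3 gene, -0.19 (SE 0.41). Among SMADs and their regulators, Smad5, Smurf2, Usp15, Lemd3 and Ppm1a had differences from -0.08 to 0.09, with Ppm1a, a phosphatase gene, having the smallest p. Of the target genes 6 of 7 had negative values with a median of -0.09, and Id2, an inhibitor of bHLH factors induced by BMPs, had the smallest p, at -0.27 (SE 0.11; limma adjusted p = 0.326). Fn1, the fibronectin gene, had -0.22 at its brightest probe set, and with probe sets averaged it fell by 0.44 log2 units (adjusted p = 0.0256, limma).

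**Figure D4:**
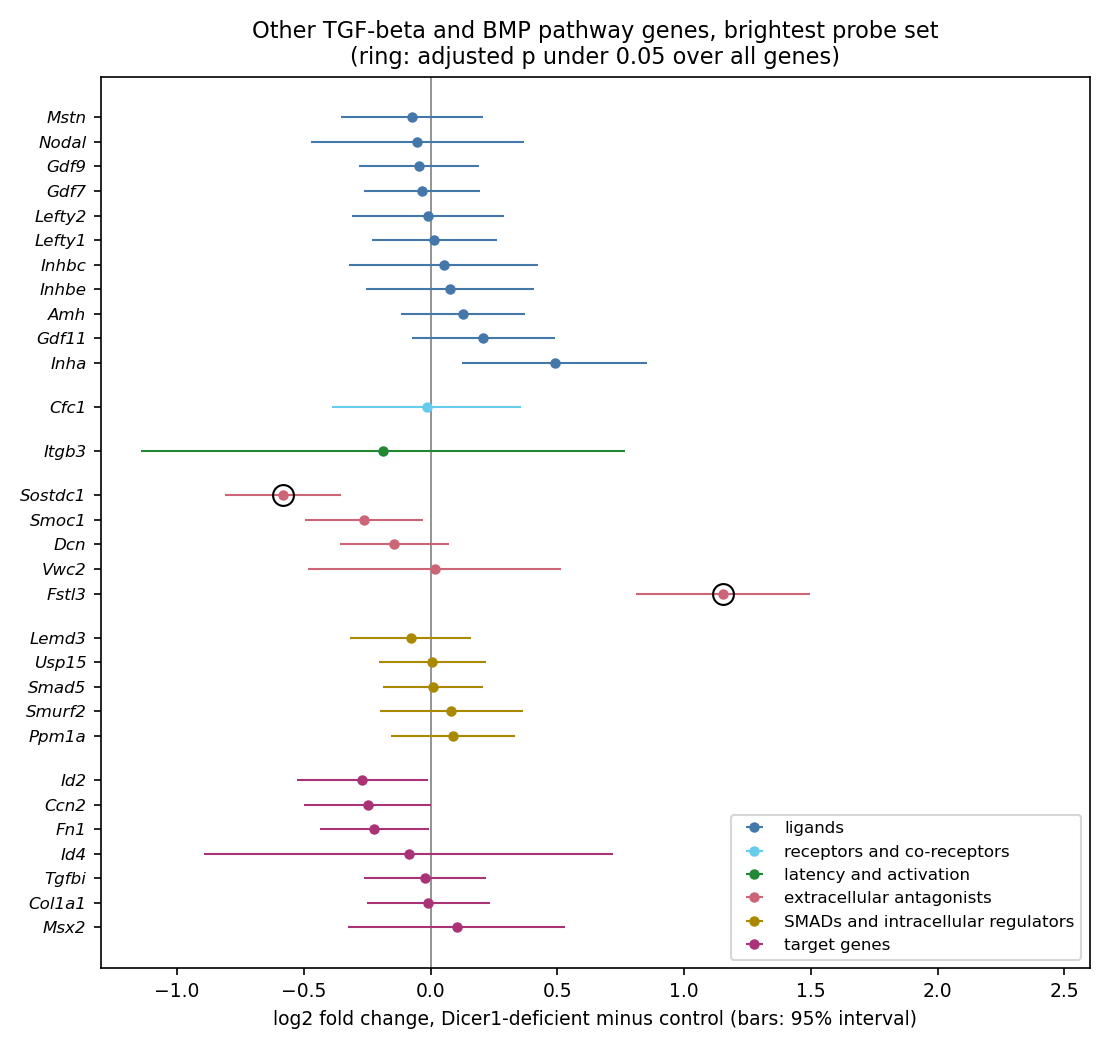
Log2 fold change, Dicer1-deficient minus control, of the 30 other measured pathway genes at their brightest probe sets (horizontal axis, bars are 95% intervals), coloured by role. Rings mark Fstl3 (1.15) and Sostdc1 (-0.58), which passed limma's test over all genes.

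For some marker lists of cell types that the dissected tissue could hold, list means did not overlap between the groups. The mean log2 signal of the 10 measured RPE and pigment cell markers was 10.37 to 10.64 in controls and 9.92 to 10.21 in Dicer1-deficient arrays. All 10 were lower, against 51.9% of all genes. Kcnj13 alone was called at the brightest probe set, where 0.917% of all genes were called lower. The 9 of 10 fibroblast and scleral markers measured had list means of 11.88 to 12.01 and 11.56 to 11.77, with 7 lower, and the 3 of 7 melanocyte and Schwann cell markers 8.83 to 9.26 and 8.33 to 8.47, with all 3 lower. For these 3 lists the groups did not overlap. Single genes did not overlap in 16.3% of all genes, and no such share was worked out for list means. Averaged over probe sets, 3 RPE markers (Kcnj13, Rdh5 and Rdh10), 2 fibroblast markers (Fmod and Omd) and 2 melanocyte and Schwann cell markers (Pax3 and Erbb3) were called lower. By that measure 2.83% of all genes were called lower. List means overlapped for photoreceptors (4 of 12 measured, 4.94 to 6.17 and 5.85 to 6.64), inner retinal neurons and progenitors (6 of 11, 6.43 to 6.92 and 6.66 to 7.39) and lens (6 of 10, 6.11 to 7.90 and 7.13 to 8.70). In the photoreceptor, inner retinal and lens lists 1, 2 and 1 markers were lower, with median log2 fold changes of 0.58, 0.49 and 0.90. The inner retinal list had 1 marker called higher and 1 lower at the brightest probe set, against 1.42% and 0.917% of all genes. List means also overlapped for macrophages (2 of 6, 8.99 to 9.35 and 8.83 to 9.14, with 1 lower), endothelium (1 of 6, 9.77 to 10.01 and 9.54 to 10.04, with 1 lower) and eye muscle (6 of 7, 8.59 to 8.96 and 8.28 to 8.92, with 4 lower). The dimmest markers in controls were Prox1 at 4.72 and Rcvrn at 4.86. The part of cell content in the differences of the TGF-beta and BMP genes was not tested, and fewer cells of a type cannot be told apart from less RNA per cell in these samples.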

How the data were processed

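Total RNA was biotin-labelled for Affymetrix arrays, per the labels. The authors deposited 1 log2 signal per probe set and array. RMA, a method that corrects background, equalises arrays by quantiles and summarises probes, and Partek 6.6 are listed in the submitters' processing notes. Signals between 2.71 and 13.5 point to the log2 scale. Equalising arrays removes any difference in total RNA. Probe filters and genome build were not given in the sources used here.

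The platform annotation gave 53644 probe sets 1 symbol, 877 several and 11014 none; old symbols were updated through RefSeq (GRCm38.p6). Groups came from the labels; array numbers are names given here and pair no arrays. The brightest probe set per gene, and separately every probe set, was compared with limma 3.58.1 in R 4.3.3 (lmFit, eBayes, two-sided, Benjamini-Hochberg, threshold 0.05, 2.82 prior and 5 residual degrees of freedom), which was tested on simulated data. No detection filter was used, and the number of arrays limits the precision. Fold changes are Dicer1-deficient minus control; errors of means are SDs. Figures used Python 3.11.15 and matplotlib 3.10.9.

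The members and lists were chosen with earlier results of these data known. Named genes are the members, Dicer1, up to 4 called genes per role list or else the 1 with the smallest p, and the 3 genes most like Itgb8 and Wfikkn2 by root mean square difference, leaving out symbols ending in Rik or starting with Gm and a digit. Marker genes are named where their level is given beside a result. Some further pathway genes are named outside this rule, among them Fn1, which was called only with probe sets averaged. Alternatives were quantile normalization again, median centring, a filter on dim features, a variance trend, robust moderation, array weights, the mean of probe sets and leaving out each array. Leaving out each array other than control 4 on the mean of probe sets was added after seeing the data.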

Additional observations from a re-analysis of the deposited data

How the results depend on the processing

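Itgb8 and Wfikkn2 kept their direction and were called under all 15 other settings, from -1.56 to -1.20 and from -1.48 to -1.22 on the log2 scale. All other members kept their direction except Nog, at -0.00133 with all arrays, 0.0439 without control 2 and 0.0762 without Dicer1-deficient array 2, both the same with probe sets averaged (range -0.0477 to 0.0762 with 1 array left out). With 1 array left out, the genes called numbered 33 to 260 (117 with all), the members 2 to 3 (2 with all), the other pathway genes 0 to 2 (2 with all), the probe sets 138 to 1216 (561 with all) and the member probe sets 5 to 19 (15 with all). The highest counts came without control 4. The lowest count of member probe sets came without Dicer1-deficient array 3, and it was 6 without array 2 and 8 without array 1. Array weights gave 385 genes, 1663 probe sets and 23 member probe sets. The mean of probe sets gave 294 genes and 6 members, and without control 4 it gave 853 genes, 7 members and 4 other pathway genes, while without each other array in turn it gave 2 to 4 members. Median centring gave 1 other pathway gene. The causes were not tested. No paired analysis was possible because the labels carry no replicate numbers, and the array numbers used here are only names. Signals of Nog, Inhbb and part of Inhba and Ltbp2 below the median of all signals limit what their differences show.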
